A study of Mus musculus with 4 samples.

Results

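The subunits of oxidative phosphorylation that are encoded in the nucleus were compared between sorted nuclei of excitatory and inhibitory neurons of the adult mouse brain. Members were all symbols with the stems Nduf (complex I), Sdh (complex II), Uqcr (complex III), Cox4 to Cox8 (complex IV) and Atp5 (complex V, the ATP synthase) followed by a subunit letter or number, with Cyc1 and Cycs added and symbols with a hyphen left out. The rule found 85 of the 55487 genes listed, under 84 symbols. Of these, 37 belong to complex I, 4 to complex II, 9 to complex III, 16 to complex IV and 18 to complex V, and 1 is cytochrome c. The pattern does not take Cox4i1 and Cox4i2 of complex IV, which are outside it for the letter i in their symbols. Cox6c2 is annotated as a processed pseudogene in the GENCODE mouse release M21, and Atp5o stands under 2 identifiers. Ndufa4 is counted with complex I by its symbol, although its protein is now placed in complex IV.

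RNA came from nuclei of excitatory neurons (2 libraries) and of inhibitory neurons (2 libraries), collected by fluorescence-activated sorting from whole brain without the olfactory bulb. All animals were labelled WT and all libraries batch 1. The study's design text gives the animals as adult, and strain, sex and exact age are not analysed here. The labels name no sort marker. They also leave unsaid how many animals stand behind a library and whether the replicates are different animals, and the spread that the p-values rest on may therefore be technical. Values are TPM, transcript abundances that the authors divided by length and scaled to the same total, so levels can be compared between genes but the depth of each library is unknown.

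Oxidative phosphorylation is the stage of respiration that makes most of the ATP of a neuron. Complexes I and II pass electrons from NADH and succinate to ubiquinone, complex III passes them on to cytochrome c, and complex IV passes them to oxygen. Complexes I, III and IV pump protons, and complex V uses the proton gradient to make ATP. Complex II is built from nuclear genes alone, whereas the other complexes also hold subunits made inside the mitochondrion from its own DNA. In the brain, neurons that fire at high rates, such as fast-spiking interneurons, are known for a high demand on this system.

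The table as a whole set the context. Each library listed between 32207 and 32836 genes above 0, and the members took between 0.409% and 0.538% of the TPM. Of excitatory neuron markers, 8 of 9 were higher in excitatory nuclei, and Slc17a6, the glutamate transporter typical of thalamus and brainstem, was higher in inhibitory nuclei. Of inhibitory neuron markers, 8 of 8 tested were higher in inhibitory nuclei. Among them, Dlx5 stood at 0.393 and 0 TPM in excitatory libraries, against 3.99 and 4.76 TPM in inhibitory libraries. Only its inhibitory libraries reached the 1 TPM that testing asks of at least 2 libraries. The direction of Dlx5 was therefore fixed by its being tested, and its call supports nothing. Fast-spiking interneuron markers (7 of 9), striatal projection neuron markers (8 of 9) and Purkinje cell markers (6 of 6) were also higher in inhibitory nuclei. The 2 fast-spiking markers that were not called were Cplx1 and Pvalb. Pvalb stood at 23.3 and 12.7 TPM in excitatory libraries, against 36.9 and 31.4 TPM in inhibitory libraries. Striatal markers summed to 357 and 363 TPM in excitatory libraries, against 1145 and 1199 TPM in inhibitory libraries. Fast-spiking markers summed to 289 and 249 TPM in excitatory libraries, against 729 and 720.1 TPM in inhibitory libraries. Non-neuronal RNA was present in both groups. Astrocyte markers summed to 493 and 526 TPM in excitatory libraries, against 222 and 199 TPM in inhibitory libraries, and 1 of 9, Slc1a2, was called, higher in excitatory nuclei. Slc1a2, a glutamate transporter, stood at 359 and 429.8 TPM in excitatory libraries, against 85.1 and 88.8 TPM in inhibitory libraries. Without it, a sum chosen after seeing the data, the other 8 markers summed to 134 and 96.2 TPM in excitatory libraries, against 137 and 110.0 TPM in inhibitory libraries. Aldoc was the largest part of that sum, at 68.6 and 42.2 TPM in excitatory libraries, against 88.3 and 72.3 TPM in inhibitory libraries. It was the 1 astrocyte marker of 9 that leaned toward inhibitory nuclei, and 8 leaned toward excitatory nuclei, so the near equality of these sums does not describe the other markers. Oligodendrocyte markers summed to 457 and 374 TPM in excitatory libraries, against 396 and 284 TPM in inhibitory libraries. Microglia markers summed to 71.1 and 64.1 TPM in excitatory libraries, against 93.6 and 74.4 TPM in inhibitory libraries. Neither of the last lists had a called gene. The part of these cell types in the results was not tested. In bulk samples of this kind, fewer cells of a type and less RNA per cell cannot be told apart.

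Differences between the groups were small for nearly all members. The log2 fold change is excitatory minus inhibitory on the log2(TPM + 1) scale, fitted with limma on all 26055 genes that reached 1 TPM in at least 2 libraries, and a gene is called when its Benjamini-Hochberg adjusted p is under 0.05. Of the members, 81 were tested, 0 were higher in excitatory nuclei and 2 were higher in inhibitory nuclei by limma. At an unadjusted p under 0.05 there was 1 member toward excitatory and 20 toward inhibitory nuclei, beside 3062 toward excitatory and 4194 toward inhibitory nuclei of all 26055 genes. The called genes were Ndufab1 of complex I and Atp5g3 of complex V. Among all genes tested, calls toward excitatory nuclei made 5.43% and calls toward inhibitory nuclei 6.62%, so the members were called at 2.47%, under the background of 12.0% for either direction. The 95% interval of the difference lay between -1 and 1, that is within a 2-fold change either way, for 74 of the 81 members. Among all genes tested this held for 14601 of 26055. The median standard error was 0.15 for members and 0.23 for all genes, so the members' intervals were also narrower. These intervals were not adjusted for the number of genes.

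Promoters of the members were read from RefSeq (GRCm38.p6, the same assembly as mm10) as windows from 250 bases before to 50 bases after the start. Of the 84 symbols, 69 were matched, with 74 windows, beside 32851 windows of all genes. Letters of binding motifs known from respiratory gene promoters were searched on both strands. GCATGCG, the core of the NRF1 site, stood in 16.2% of members' windows and 3.58% of all windows. CCGGAAG, bound by ETS factors such as GABPA, stood in 23.0% of members' windows and 8.86% of all. AAGATGG, of the YY1 site, stood in 14.9% of members' windows and 6.34% of all. GGGCGGG, bound by Sp factors, stood in 32.4% of members' windows and 25.6% of all. The members' windows also held more CpG, with a median of 19 against 7 in all windows, and the RefSeq table includes genes of every kind. A match is a description of the letters and does not show binding.

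The 250 bases before the start are given for the called genes Ndufab1 and Atp5g3, for Atp5b as the member with the highest level, and for Cox6a1 as an example with several matches, singled out after its window was seen. Capitals mark a motif on either strand. The Ndufab1 window is chr7:122101849-122102098 (minus strand), that of Atp5g3 chr2:73911327-73911576 (minus), that of Atp5b chr10:128083057-128083306 (plus) and that of Cox6a1 chr5:115348959-115349208 (minus).
Ndufab1: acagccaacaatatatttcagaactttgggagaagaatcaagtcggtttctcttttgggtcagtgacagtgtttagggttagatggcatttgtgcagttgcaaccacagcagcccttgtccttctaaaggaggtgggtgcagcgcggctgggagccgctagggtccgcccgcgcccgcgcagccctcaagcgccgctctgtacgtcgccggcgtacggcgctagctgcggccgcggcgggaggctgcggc
Atp5g3: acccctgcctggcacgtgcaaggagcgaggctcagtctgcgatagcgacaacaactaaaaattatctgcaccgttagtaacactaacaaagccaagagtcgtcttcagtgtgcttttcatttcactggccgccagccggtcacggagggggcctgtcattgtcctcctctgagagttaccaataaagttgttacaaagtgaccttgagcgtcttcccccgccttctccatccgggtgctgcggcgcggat
Atp5b: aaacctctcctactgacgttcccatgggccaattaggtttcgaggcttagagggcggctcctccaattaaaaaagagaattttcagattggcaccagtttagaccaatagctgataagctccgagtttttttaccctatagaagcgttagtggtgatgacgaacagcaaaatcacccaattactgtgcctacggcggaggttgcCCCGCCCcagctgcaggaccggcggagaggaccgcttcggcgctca
Cox6a1: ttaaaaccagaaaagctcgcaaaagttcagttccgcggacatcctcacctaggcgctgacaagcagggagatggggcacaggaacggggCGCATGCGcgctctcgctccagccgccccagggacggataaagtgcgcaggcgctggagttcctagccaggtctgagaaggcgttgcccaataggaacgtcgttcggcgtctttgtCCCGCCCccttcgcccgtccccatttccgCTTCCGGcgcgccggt
Cox6a1 held the NRF1 core on both strands, in matches that overlap, with an Sp motif and an ETS motif nearer the start. Atp5b held 1 Sp motif. The windows shown of Ndufab1 and Atp5g3 held 0 of the 4 motifs, which says only that these letters are not in them.

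The small differences lay mostly on the same side. The fold change was below 0 for 70 of 81 members (86.4%), against 57.3% of all genes tested, and its median was -0.22 for members and -0.07 for all genes. For 3 members (3.70%), Ndufa3, Ndufb4 and Ndufb7, both excitatory libraries stood above both inhibitory ones (background 23.0%). For 43 members (53.1%) both inhibitory libraries stood above (background 33.3%). The 2 directions together made 56.8% of the members, against 56.2% of all genes, so the pooled share was near the background. By direction, the members' share lay under the background for excitatory and over it for inhibitory nuclei. The distance between members and all genes changed with single libraries. Without excitatory replicate 2 the median was -0.11 for members and -0.11 for all genes, and without inhibitory replicate 1 it was -0.11 for members and -0.09 for all genes. Without excitatory replicate 1 it was -0.31 for members and -0.02 for all genes, and without inhibitory replicate 2 it was -0.34 for members and -0.06 for all genes.

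**Figure D1:**
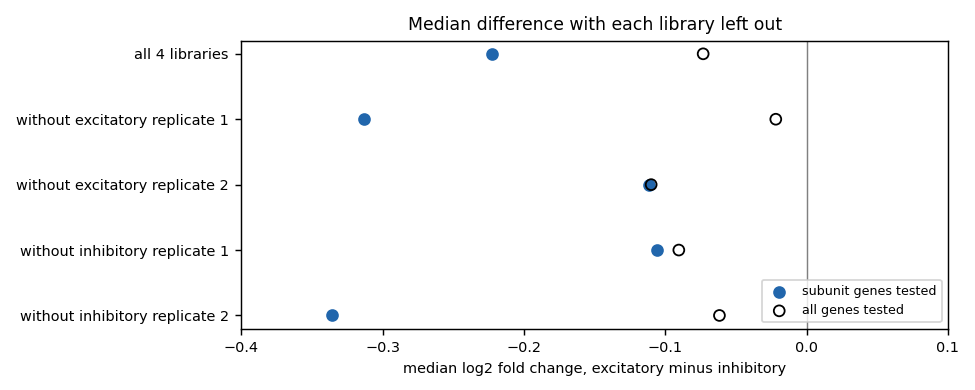
Median log2 fold change (horizontal axis, excitatory minus inhibitory) of the 81 subunit genes tested (filled) and of all genes tested (open), with all 4 libraries and with each library left out. The filled and open points nearly coincide without excitatory replicate 2 and without inhibitory replicate 1.

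Replicates of a group differed in the members as well. Replicate 1 stood above replicate 2 in both groups for 47 of 81 members (58.0%), against 19.8% of all genes tested. Inhibitory replicate 1 was the highest of the 4 libraries for 52 members and excitatory replicate 2 the lowest for 50. The median log2 difference of replicate 1 over replicate 2 was 0.17 among excitatory and 0.21 among inhibitory libraries for members, and -0.09 among excitatory and -0.04 among inhibitory libraries for all genes with a gene model. The spread between replicates was thus of the size of the median difference between the groups. Cytosolic ribosomal protein genes, another set of widely expressed genes, showed the same order of replicates (52 of 84 tested, 61.9%), with a median log2 fold change of -0.02. So did glial markers, with 9 of 10 for oligodendrocytes, 8 of 9 for astrocytes and 7 of 8 for microglia. The part of glial RNA in the order of the members was not tested.

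**Figure D2:**
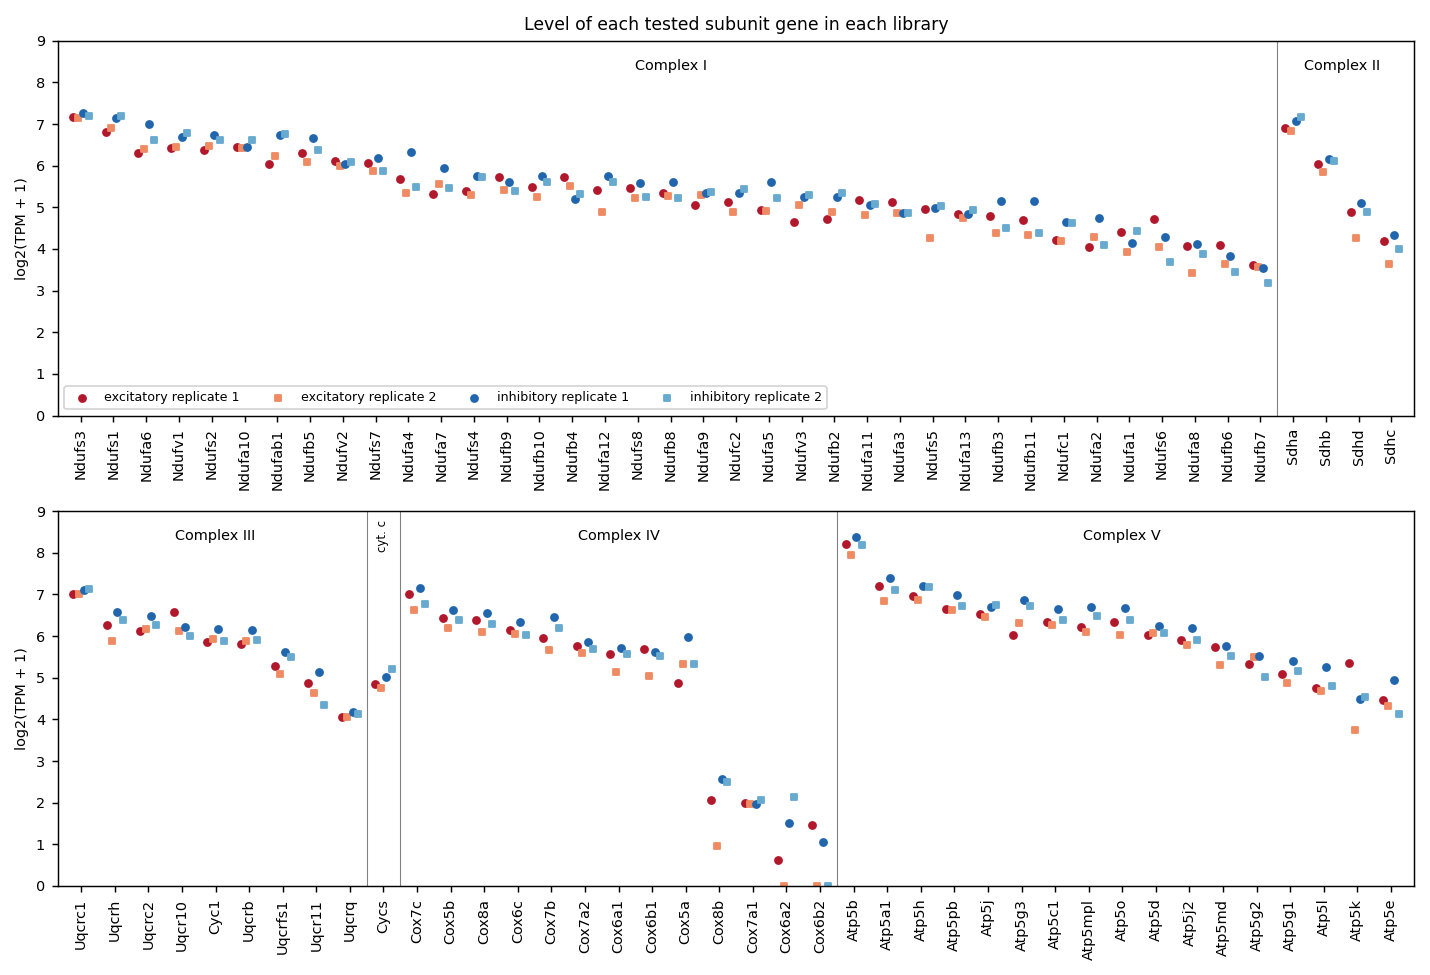
Level of each of the 81 tested subunit genes in each library, as log2(TPM + 1), ordered within each complex by mean level. The 4 genes with a mean under 10 TPM are isoforms of complex IV, and Atp5b stands highest.

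Levels of the members spanned a wide range within every large complex. A mean over the 4 libraries of at least 10 TPM was reached by 77 members, and the 4 tested members under it were Cox8b, Cox7a1, Cox6a2 and Cox6b2. Atp5b, the catalytic beta subunit of the ATP synthase, stood highest, at 294 and 245 TPM in excitatory libraries, against 333 and 289 TPM in inhibitory libraries. The groups overlapped, because excitatory replicate 1 stood above inhibitory replicate 2. Its log2 fold change was -0.21 ± 0.13 (SE), with a 95% interval of -0.53 to 0.11. Next in mean level came Ndufs3, a core subunit of complex I, at 146 TPM, and Atp5a1, the alpha subunit that forms the catalytic head with Atp5b, at 141 TPM. Median levels were 40.1 TPM for complex I, 46.0 TPM for complex II, 61.5 TPM for complex III, 43.1 TPM for complex IV and 74.9 TPM for complex V over their listed genes. Summed over the genes of complex I, TPM reached 1709 and 1607 in excitatory libraries, against 2053 and 1855 in inhibitory libraries. For complex V the sums were 1388 and 1233 in excitatory libraries, against 1672 and 1443 in inhibitory libraries. For both complexes each inhibitory library stood above either excitatory one, with means 1.18-fold higher in inhibitory nuclei for complex I and 1.19-fold for complex V. With 2 libraries a group, the smallest two-sided p that an exact permutation can reach is 0.333, and the sums were left without a test.

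**Figure D3:**
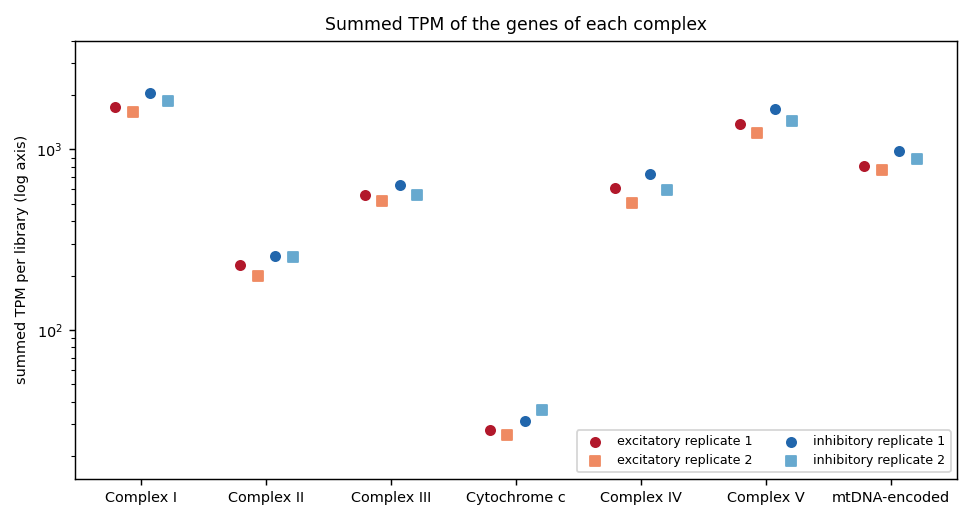
Summed TPM (log axis) of the genes of each complex in each library, with the subunits encoded by mitochondrial DNA at the right. Inhibitory libraries lie above excitatory ones for complexes I, II and V, cytochrome c and the mitochondrially encoded genes, while the groups overlap for complexes III and IV.

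In complex I, 31 of 37 members had a fold change below 0, and the median was -0.25. The 7 nuclear core subunits, which carry the flavin, the iron-sulfur clusters and the quinone site, had a median of -0.08, and the 30 accessory subunits a median of -0.25. Ndufv1, the subunit that binds NADH and flavin, stood at 84.3 and 85.7 TPM in excitatory libraries, against 103 and 109 TPM in inhibitory libraries. Ndufs1, the large iron-sulfur subunit of the same module, stood at 112 and 118 TPM in excitatory libraries, against 141 and 145 TPM in inhibitory libraries. Both were separated between the groups, with log2 fold changes of -0.32 ± 0.10 and -0.31 ± 0.09, and neither passed the test (adjusted p = 0.0937 and 0.0916). Ndufs3, of the quinone module, stood at 142 and 141 TPM in excitatory libraries, against 154 and 145 TPM in inhibitory libraries, a log2 fold change of -0.08 with a 95% interval of -0.31 to 0.15.

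Among accessory subunits of complex I, Ndufab1 passed the test. It encodes the mitochondrial acyl carrier protein, which also serves mitochondrial fatty acid synthesis. Its level was 64.6 and 74.8 TPM in excitatory libraries, against 106 and 107 TPM in inhibitory libraries, and the inhibitory libraries were nearly equal. The means were 69.7 ± 7.20 TPM in excitatory nuclei and 107 ± 0.173 TPM in inhibitory nuclei (SD, n = 2 each), a log2 fold change of -0.61 ± 0.11 (SE) with a 95% interval of -0.88 to -0.33 and adjusted p = 0.0238. The gene lies on chromosome 7, 122085403 to 122101886, minus strand (mm10). Gm44986 overlaps it on the other strand, with 269 shared exon bases and means of 8.81 TPM in excitatory and 9.81 TPM in inhibitory nuclei. The libraries were made strand-specific per the labels' protocols, but the sources used here do not say whether counting used strand, so reads of both genes may be mixed. Ndufab1-ps, which the rule leaves out, stood at 1.02 and 0.928 TPM in excitatory libraries, against 4.66 and 2.27 TPM in inhibitory libraries. Whether it shares reads with Ndufab1 was not tested. Without the filter on low values (adjusted p = 0.0611), without a trend in the variance prior (0.0965) or with any single library left out (0.0857 to 0.155), the call was lost.

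Other accessory subunits ran from Ndufa12 (-0.52) to Ndufs6 (0.40) on the log2 scale. None of them was called, beside 12.0% of all genes. Ndufs6, a zinc-binding subunit, stood at 25.3 and 15.4 TPM in excitatory libraries, against 18.4 and 11.8 TPM in inhibitory libraries, with overlapping groups. Ndufb4, a subunit of the membrane arm, stood at 52.1 and 44.6 TPM in excitatory libraries, against 35.5 and 39.1 TPM in inhibitory libraries. Its excitatory libraries were above both inhibitory ones, and its log2 fold change of 0.36 ± 0.13 did not pass the test (adjusted p = 0.144). It was singled out after its values were seen, as the member with an unadjusted p under 0.05 toward excitatory nuclei. Ndufb2, another membrane arm subunit, stood at 25.3 and 28.5 TPM in excitatory libraries, against 36.7 and 39.6 TPM in inhibitory libraries (log2 fold change -0.49 ± 0.13, adjusted p = 0.0689). Ndufs4, whose loss in mice causes a disease like Leigh syndrome, stood at 41.2 and 38.3 TPM in excitatory libraries, against 53.3 and 51.9 TPM in inhibitory libraries. The groups were separated, and the log2 fold change was -0.40 ± 0.11 (adjusted p = 0.0779). Ndufa4, the subunit now placed in complex IV, stood at 50.1 and 39.4 TPM in excitatory libraries, against 79.9 and 43.9 TPM in inhibitory libraries, where inhibitory replicate 1 stood apart from the other libraries.

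**Figure D4:**
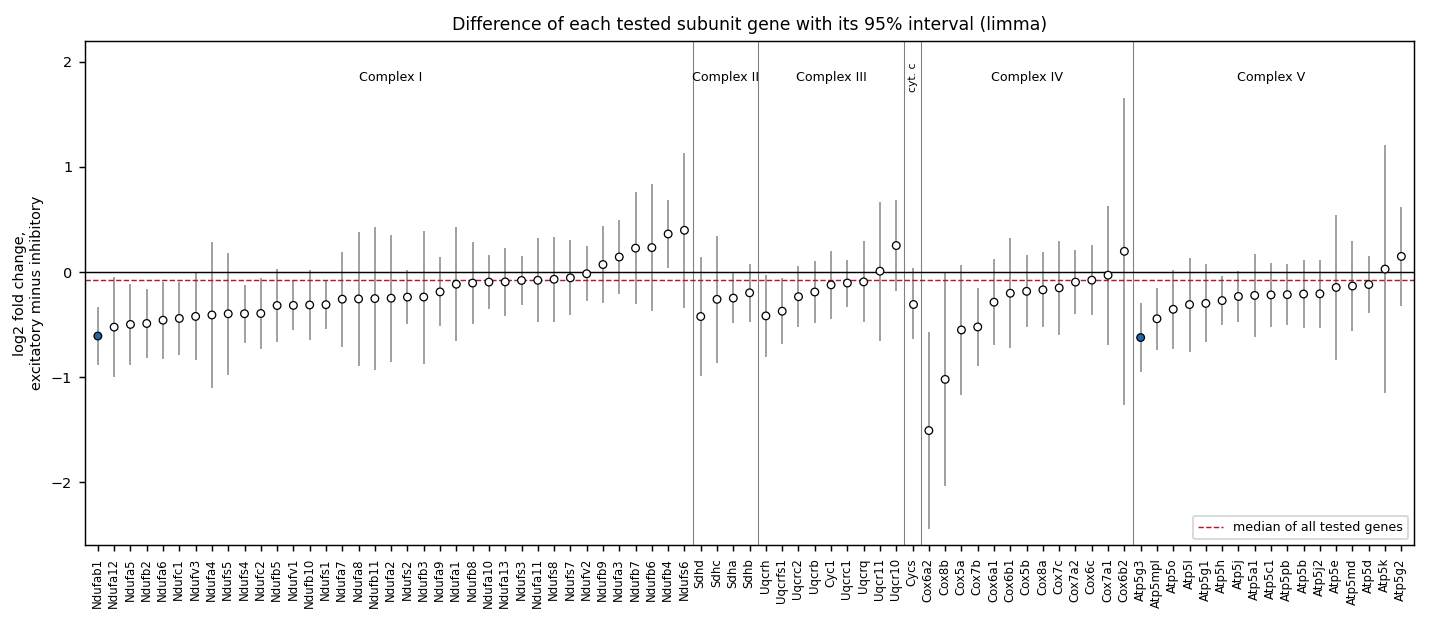
Log2 fold change (vertical axis, excitatory minus inhibitory) of each tested subunit gene with its 95% interval from limma, grouped by complex and ordered by size. Filled points are the called genes, Ndufab1 and Atp5g3, and the dashed line is the median of all genes tested at -0.07.

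All 4 genes of complex II had a fold change below 0. Sdha, the flavoprotein that oxidises succinate, stood at 119.8 and 112 TPM in excitatory libraries, against 134 and 142 TPM in inhibitory libraries, a log2 fold change of -0.25 ± 0.10 (adjusted p = 0.168). Sdhb, the iron-sulfur subunit, stood at 64.3 and 56.5 TPM in excitatory libraries, against 70.1 and 68.5 TPM in inhibitory libraries. For both genes each inhibitory library stood above either excitatory one, and neither gene was called. The membrane anchors were lower in level and overlapped between the groups, with Sdhd at 28.5 and 18.2 TPM in excitatory libraries, against 33.6 and 28.4 TPM in inhibitory libraries. Sdhc stood at 17.4 and 11.4 TPM in excitatory libraries, against 19.3 and 15.1 TPM in inhibitory libraries, so the anchors differed more between replicates, for their level, than Sdha and Sdhb did.

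In complex III, 0 of 9 members were called by limma in either direction, beside 12.0% of all genes. At an unadjusted p under 0.05 there were 2, both toward inhibitory nuclei, beside 4194 of all 26055 genes in that direction. Uqcrc1, the core subunit with the highest level, stood at 128 and 128 TPM in excitatory libraries, against 136 and 139 TPM in inhibitory libraries, and its replicates differed by under 3 TPM. Its log2 fold change was -0.10, with a 95% interval of -0.33 to 0.12. Uqcrfs1, the Rieske iron-sulfur protein, stood at 38.1 and 33.3 TPM in excitatory libraries, against 48.3 and 44.5 TPM in inhibitory libraries (log2 fold change -0.37 ± 0.13, adjusted p = 0.125). Cyc1, the cytochrome c1 subunit, stood at 57.3 and 60.1 TPM in excitatory libraries, against 70.6 and 57.9 TPM in inhibitory libraries, with overlapping groups. Uqcrh, the hinge subunit that helps cytochrome c dock, had the lowest fold change of the complex, at 75.9 and 57.7 TPM in excitatory libraries, against 94.9 and 82.9 TPM in inhibitory libraries (-0.42 ± 0.16). Uqcr10, a small subunit, had the highest, at 94.9 and 69.1 TPM in excitatory libraries, against 73.6 and 62.5 TPM in inhibitory libraries (0.25 ± 0.18), and its groups overlapped. Cycs, the soluble carrier cytochrome c, stood at 28.0 and 26.2 TPM in excitatory libraries, against 31.3 and 36.1 TPM in inhibitory libraries. Both inhibitory libraries stood above, without a call (log2 fold change -0.30 ± 0.14, adjusted p = 0.223).

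The 9 widely expressed genes of complex IV within the rule all had a fold change below 0. None was called, beside 12.0% of all genes. Cox7c had the highest level, at 128 and 97.0 TPM in excitatory libraries, against 142 and 108 TPM in inhibitory libraries, and its groups overlapped. Cox7b stood at 60.9 and 49.6 TPM in excitatory libraries, against 87.1 and 72.5 TPM in inhibitory libraries, with separated groups and a log2 fold change of -0.52 ± 0.15 (adjusted p = 0.0796). Cox5a, which holds a regulatory site facing the matrix, stood at 28.5 and 39.2 TPM in excitatory libraries, against 62.2 and 39.3 TPM in inhibitory libraries. Its inhibitory replicates differed from each other by more than its group means did. Cox4i1, the main isoform of subunit 4, which the rule does not take, stood at 155 and 114 TPM in excitatory libraries, against 160.2 and 131 TPM in inhibitory libraries (log2 fold change -0.12 ± 0.18).

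Several subunits of complex IV have a second gene, used mainly in heart and skeletal muscle or in testis. These genes were near the lower limit of the table. Cox6a2, the heart and muscle isoform of subunit 6a, stood at 0.544 and 0 TPM in excitatory libraries, against 1.86 and 3.37 TPM in inhibitory libraries. Only its inhibitory libraries reached the filter's 1 TPM, so its presence among tested genes fixed the direction of its difference. Its log2 fold change was -1.51 ± 0.38 (95% interval -2.45 to -0.57, adjusted p = 0.0580), the largest of the members and not called. With a pseudocount of 0.1 it was -3.36 (adjusted p = 0.112), so its size is set largely by the pseudocount. The gene (chromosome 7, 128205435 to 128206387, minus strand) lies inside Itgad on the other strand, which had means of 0.0127 TPM in excitatory and 0.441 TPM in inhibitory nuclei. Its widely expressed counterpart Cox6a1 stood at 46.2 and 34.4 TPM in excitatory libraries, against 51.1 and 46.7 TPM in inhibitory libraries. Cox6a2 therefore made 1.16% and 0% of the TPM of the pair in excitatory libraries, against 3.51% and 6.73% in inhibitory libraries. Cox8b, a muscle isoform of subunit 8, stood at 3.16 and 0.939 TPM in excitatory libraries, against 4.90 and 4.63 TPM in inhibitory libraries (log2 fold change -1.02 ± 0.42, adjusted p = 0.177). Its counterpart Cox8a stood at 83.1 and 67.9 TPM in excitatory libraries, against 92.4 and 77.6 TPM in inhibitory libraries, with overlapping groups.

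Cox7a1, another muscle isoform, did not show this order. It stood at 3.00 and 2.94 TPM in excitatory libraries, against 2.94 and 3.17 TPM in inhibitory libraries, with a log2 fold change of -0.03 (95% interval -0.69 to 0.63). Under median ratio scaling or quantile normalization the sign of this value turned. Cox7a2, its counterpart, stood at 53.4 and 47.3 TPM in excitatory libraries, against 57.1 and 50.7 TPM in inhibitory libraries. Of the testis isoforms, Cox6b2 stood at 1.75 and 0 TPM in excitatory libraries, against 1.09 and 0 TPM in inhibitory libraries, beside 50.4 and 32.1 TPM in excitatory libraries, against 47.7 and 45.2 TPM in inhibitory libraries for its counterpart Cox6b1. Cox7b2 was listed at 0 in both excitatory libraries and at 0.951 and 0.418 TPM in inhibitory libraries, under the filter. Cox8c, Cox6c2 and the second entry of Atp5o were listed at 0 in all 4 libraries. Muscle and heart genes as a list gave no common direction, with 1 of 5 tested, Myh7, higher in inhibitory nuclei. The depth behind these low values is unknown, so no counting error can be given.

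**Figure D5:**
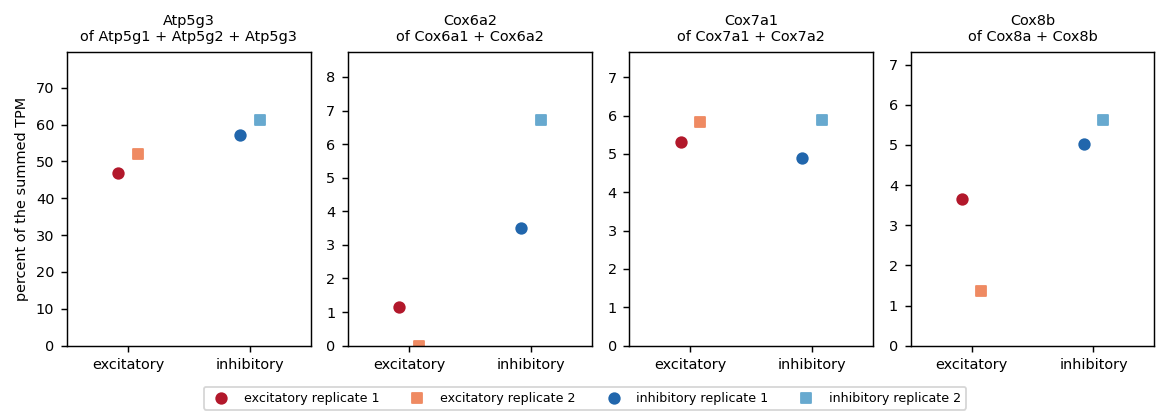
Share of an isoform in the summed TPM of its isoform genes, in percent, for each library. Atp5g3, Cox6a2 and Cox8b lie higher in both inhibitory libraries than in either excitatory library, whereas Cox7a1 lies between 4.89% and 5.89% with overlapping groups. Atp5g3 is shown because it was called on these same values. Only the inhibitory libraries of Cox6a2 reached the filter's 1 TPM, which fixed the direction of its difference in TPM.

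In complex V, the called gene was Atp5g3. Atp5g1, Atp5g2 and Atp5g3 encode precursors of the same mature c subunit, which forms the rotor ring in the membrane. Atp5g3 stood at 64.3 and 78.9 TPM in excitatory libraries, against 116 and 105 TPM in inhibitory libraries. The means were 71.6 ± 10.3 TPM in excitatory nuclei and 110.3 ± 7.57 TPM in inhibitory nuclei (SD, n = 2 each), a log2 fold change of -0.62 ± 0.13 (SE) with a 95% interval of -0.95 to -0.30 and adjusted p = 0.0350. The gene lies on chromosome 2, 73908447 to 73911326, minus strand, and no other annotated gene overlaps it. The call was lost without the filter (adjusted p = 0.0886), without a trend in the variance prior (0.118) or with any single library left out (0.0926 to 0.209). Atp5g1 stood at 33.2 and 28.4 TPM in excitatory libraries, against 41.6 and 34.8 TPM in inhibitory libraries (-0.30 ± 0.15), and Atp5g2 stood at 39.5 and 44.4 TPM in excitatory libraries, against 45.2 and 31.4 TPM in inhibitory libraries (0.15 ± 0.19, with overlapping groups). Atp5g3 made 46.9% and 52.0% of the TPM of the 3 genes in excitatory libraries, against 57.1% and 61.3% in inhibitory libraries. The share of Atp5g2 ran the other way, at 28.8% and 29.3% in excitatory libraries, against 22.3% and 18.3% in inhibitory libraries. These shares carry no test of their own, for the reason given for the sums.

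The rest of the ATP synthase showed smaller values. The 5 genes of the catalytic head and central stalk had a median log2 fold change of -0.21, and the groups overlapped for 3 of them. The peripheral stalk holds the head still against the rotor. All 4 of its tested genes had both inhibitory libraries above the excitatory ones (33.3% of all genes), with a median of -0.25. Of these, Atp5h stood at 124 and 115 TPM in excitatory libraries, against 146 and 143 TPM in inhibitory libraries, and Atp5o, which joins the stalk to the head, stood at 79.6 and 63.8 TPM in excitatory libraries, against 101 and 83.1 TPM in inhibitory libraries (-0.35 ± 0.15, adjusted p = 0.201). The second Atp5o entry overlaps this gene on the same strand with 243 shared exon bases. It was listed at 0 in all 4 libraries, so no TPM was given to it. How reads of the shared bases were handled is not known. Atp5mpl, a small membrane subunit, stood at 73.5 and 67.2 TPM in excitatory libraries, against 104 and 89.1 TPM in inhibitory libraries (-0.44 ± 0.12, adjusted p = 0.0671). Atp5k, subunit e of the dimer interface, stood at 39.8 and 12.4 TPM in excitatory libraries, against 21.6 and 22.4 TPM in inhibitory libraries, where the excitatory libraries lay on either side of both inhibitory ones. Its 95% interval of -1.15 to 1.20 takes in a 2-fold difference in either direction.

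Genes that act with the subunits were called at shares to be read against the 6.62% of all genes higher in inhibitory nuclei. Of respiratory complex assembly factors, 0 of 49 tested were higher in excitatory nuclei and 2 in inhibitory nuclei by limma (0 at an unadjusted p under 0.05 toward excitatory and 5 toward inhibitory nuclei), with a median of -0.14. Ndufaf5, an assembly factor of complex I, stood at 57.2 and 54.8 TPM in excitatory libraries, against 83.0 and 81.8 TPM in inhibitory libraries (-0.55 ± 0.10, adjusted p = 0.0234). Uqcc1, an assembly factor of complex III, stood at 26.3 and 27.7 TPM in excitatory libraries, against 37.7 and 40.5 TPM in inhibitory libraries (-0.52 ± 0.13, adjusted p = 0.0497), and its call was lost with a pseudocount of 0.1 (adjusted p = 0.0555), median ratio scaling (0.0569), quantile normalization (0.0522), no filter (0.0782) or no variance trend (0.116). Ndufaf5 lost its call without the variance trend (0.0970). Of pyruvate dehydrogenase and citric acid cycle genes, 1 of 18 was called, and the median was -0.26. This was Idh2, the NADP-dependent isocitrate dehydrogenase of mitochondria, at 37.5 and 43.8 TPM in excitatory libraries, against 69.4 and 90.1 TPM in inhibitory libraries (-0.95 ± 0.16, adjusted p = 0.0185), a call lost without the filter (0.0642) or the variance trend (0.0650). None of 7 tested genes for nucleotide and phosphate carriers and porins was called by limma (3 at an unadjusted p under 0.05, all toward inhibitory nuclei).

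Among 17 regulators of mitochondrial genes, 2 were called higher in inhibitory nuclei (6.62% of all genes), Esrrg and Esrrb. Only the inhibitory libraries of Esrrb reached the filter's 1 TPM, so its direction was fixed by its being tested and its call supports nothing. Esrrg, an estrogen-related receptor, stood at 14.0 and 14.7 TPM in excitatory libraries, against 30.6 and 29.8 TPM in inhibitory libraries (-1.02 ± 0.14, adjusted p = 0.0100). Esrrb stood at 0.419 and 0.186 TPM in excitatory libraries, against 2.86 and 3.96 TPM in inhibitory libraries (-1.75 ± 0.31, adjusted p = 0.0217). The size depends on the pseudocount, with a log2 fold change of -3.17 at 0.1. Ppargc1a, a coactivator that works with these receptors on respiratory genes, stood at 14.7 and 17.0 TPM in excitatory libraries, against 23.1 and 24.9 TPM in inhibitory libraries, with separated groups and no call (-0.57 ± 0.16, adjusted p = 0.0735). Log2 fold changes of the list reached up to 0.04, and the median of the list was -0.22. Esrrb lost its call without the filter (adjusted p = 0.0571), and with any single library left out limma called none of the list genes named here.

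The 13 subunits encoded by mitochondrial DNA had 0 calls by limma in either direction, beside 12.0% of all genes. At an unadjusted p under 0.05 there were 2, both toward inhibitory nuclei, beside 4194 of all 26055 genes in that direction. Summed TPM of these 13 subunits was 809.8 and 771 in excitatory libraries, against 978 and 881 in inhibitory libraries. Their median log2 fold change was -0.24, beside -0.22 for the nuclear members. These transcripts are made in the mitochondrion, outside the nucleus. The part of such RNA in the values of the nuclear members was not tested.

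By GENCODE M21, the median length of the 81 tested members was 7187 bases, with 1718 bases of exon, against 8961 and 2588 bases for all 25979 tested genes with a gene model, and 24598 and 4397 bases for the 14602 protein-coding ones. The longest was Ndufs4, at 100464 bases. Another annotated gene overlapped 29 of them on the opposite strand and 11 on the same strand, and 44 were overlapped by none. Besides, 16 symbols of the same families with -ps in the name, left out by the rule, stood in the table. Of these, 7 were under 1 TPM in every library and 2 at 10 TPM or more in some library. The latter were Cox7c-ps1, up to 24.2 TPM, and Ndufb1-ps, up to 16.0 TPM. Gene types of the -ps symbols were not looked up. No Ndufb1 stands among the members, so Ndufb1-ps is not shown to be a copy of a member. Where a -ps symbol is a processed copy of a member, reads can be shared, which makes the values of such members uncertain.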

How the data were processed

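RNA-seq of sorted nuclei was used as deposited: 1 table of TPM values made by the authors, with 1 column per library and column sums between 999833 and 999891. StringTie 2.2.1, Bowtie2 2.3.5, HISAT2 2.2.1 and fastp 0.23.4 are listed, with build mm10, per the submitters' processing notes. The order of these steps and the annotation behind the TPM are not given. TPM keeps no depth, so no counting error could be given.

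Titles gave each library its group and number, and descriptions its column. The fit used log2(TPM + 1), a pseudocount of 1, for genes that reached 1 TPM in 2 or more libraries, with limma 3.58.1 in R 4.3.3 (variance trend, 2 residual degrees of freedom, a prior worth 4.04), two-sided, with Benjamini-Hochberg adjustment over 26055 genes. The function was tested on simulated data. Figures used matplotlib 3.10.9 in Python 3.11.15.

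Members and lists were chosen with earlier results of these data known. Named members were those called, the highest and lowest fold change and the highest level in each complex, the tissue-restricted isoforms with their counterparts, and up to 4 called genes of each list. Other members named were singled out after their values were seen. Alternatives were a pseudocount of 0.1, no filter, a filter of at least 5 TPM, no variance trend, median ratio scaling, quantile normalization, rescaling without mitochondrial genes and the 10 most abundant genes, a replicate block, and each library left out. Gene models came from GENCODE M21, whose identifiers matched 99.7% of tested genes.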

Additional observations from a re-analysis of the deposited data

How the results depend on the processing

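The count of members higher in excitatory nuclei was 0 in every alternative run with limma. The count higher in inhibitory nuclei was 2 under 6 settings: as reported, with a pseudocount of 0.1, with a filter of at least 5 TPM, under median ratio scaling and quantile normalization, and after rescaling without mitochondrial and the 10 most abundant genes. It was 0 without the filter (18 at an unadjusted p under 0.05), 0 without the variance trend (8) and between 0 and 0 with any library left out (5 to 19), where limma had 1 residual degree of freedom, the lone library was assumed to vary like the other group, and 0 genes of the whole table were called. With the replicate block it was 11. Of all genes, 1414 were called higher in excitatory and 1725 in inhibitory nuclei as reported, 666 and 740 without the filter, 1792 and 1569 under median ratio scaling, and 1661 and 1570 under quantile normalization, so the scalings turn the balance. With the block, 16.6% of all genes were called. The replicate numbers were not shown to pair the libraries. The deviations of same-numbered libraries correlated at r = 0.10 across all genes tested and 0.084 across members. A correlation leaves out a shift common to the genes compared, so it cannot decide on pairing. Replicate 1 stood above replicate 2 in both groups for 58.0% of members, against 19.8% of all genes tested. The design has only 2 pairs, and pairing was not tested. The median of all genes moved by under 0.1 under each scaling.

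Of 81 members, 24 had a fold change of the other sign under some alternative, 24 with a library left out and 4 under a scaling. Cox7a1 turned to 0.026 under median ratio scaling and 0.10 under quantile normalization. With each library left out, fold changes ranged as follows: Cox7a1 -0.072 to 0.012, Cox7c -0.35 to 0.048, Cox6b1 -0.52 to 0.12, Cox6b2 -0.53 to 0.93, Cox4i1 -0.34 to 0.10, Sdhc -0.54 to 0.023, Cyc1 -0.26 to 0.019, Ndufa4 -0.83 to 0.016, Atp5g2 -0.11 to 0.41 and Atp5k -0.77 to 0.83. These genes are examples, and other members whose sign turned are not listed. Cox4i1 is outside the rule and is not among the 24. The cause of the changes in sign was not tested.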
